A study of Mus musculus with 2 samples.

Results

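The genes described here are the interleukin-6 (IL-6) family cytokines Il6 and Lif, the receptor chains Il6ra, Il6st, Lifr and Osmr, the transcription factor Stat3 and the feedback inhibitor Socs3. They were chosen by symbol, and all 8 were found among the 28006 features of the count tables. Transcripts were counted by single cell RNA-seq in GFP+ cells that had been sorted from femurs of 2 mice, 1 library each, at postnatal day 28. Their shared genotype, which makes them 1 group, was Cxcl12(GFP/+); Cxcl12-iCreER; R26R(tdTomato/+), and tamoxifen had been given at postnatal day 21. The GFP allele replaces 1 copy of Cxcl12 in every animal, and the creER is a bacterial artificial chromosome transgene driven by Cxcl12 sequence, so the tdTomato mark covers only cells in which that transgene was active. No untreated animal or animal without these alleles was analysed here, so every comparison was made between cells of the same mice. The labels disagree on the sort, since a protocol field names tdTomato+ cells where the other fields name GFP+ cells, and the libraries were treated as GFP+ sorts.

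Cytokines of the IL-6 family act through receptors that share the chain gp130, the product of Il6st. IL-6 first binds its own chain, IL-6 receptor alpha (Il6ra), in the membrane or as a shed soluble form. Leukemia inhibitory factor (LIF, from Lif) pairs gp130 with the LIF receptor (Lifr), and oncostatin M pairs it with the oncostatin M receptor (Osmr) or with Lifr. The assembled receptor activates JAK kinases and STAT3 (Stat3), which induces Socs3, an inhibitor that binds gp130 and the JAKs and ends the signal. In bone marrow the family is known for effects on stromal and osteoblast lineage cells, on osteoclast formation and on blood progenitors. Transcript levels do not show whether a receptor was engaged.

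Cells were divided into classes by marker genes, so that a stromal source of a transcript could be told from an endothelial or a blood source. The libraries held 54940400 UMIs (molecular tags that count 1 captured transcript each) in Mouse #1 and 88790688 in Mouse #2, and 2750 and 4582 cells were kept, each with 1000 or more genes and no more than 15% of UMIs from mitochondrial genes. Median depth was 12966.5 and 12190 UMIs per cell, and 7 cell barcodes occurred in both libraries. Of 21 clusters, 17 took a name from their markers. Stromal cells were the reticular-like (1244 and 2421 cells), preosteoblast-like (436 and 871) and periosteal-like (78 and 234) classes. Endothelial-like cells numbered 152 and 138, and blood cells, which are the myeloid-like, lymphoid-like and erythroid-like classes together, numbered 689 and 678. The suffix is left out in what follows. Each class carried its own markers, with Cilp of the periosteal list at 0 in both periosteal sums. The endothelial sums also carried myeloid markers, at 7579 and 5071 CPM (UMIs of a gene or list in the usual counts-per-million scaling by all UMIs of the class) against 186438 and 247384 CPM in myeloid cells, and reticular markers at 791 and 1226 CPM against 17443 and 15035 CPM in reticular cells. The part of these admixed markers in the endothelial values was not tested.

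Il6 was highest in periosteal cells. Its level there was 126 CPM in Mouse #1 and 147 CPM in Mouse #2, with 95% Poisson intervals of 108 to 145 and 134 to 160. Endothelial cells followed at 55.6 and 7.19 CPM, reticular cells at 20.9 and 16.1 CPM and preosteoblasts at 7.30 and 2.37 CPM. Blood cells held 10 and 18 Il6 UMIs in all, or 0.774 and 1.43 CPM. The periosteal values lay above those of every other class in both mice, whereas the endothelial values of the 2 mice spanned the reticular ones. Periosteal cells were 2.84% and 5.11% of all cells but contributed 25.5% and 46.2% of all Il6 UMIs.

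Few cells accounted for most Il6 UMIs within each class. Of the reticular cells, 99 of 1244 and 202 of 2421 held any Il6 UMI, and the 5% of cells with the most held 89.2% and 83.4% of the total. In periosteal cells, 25 of 78 and 62 of 234 cells held at least 1 UMI, and the top 5% of cells held 57.8% and 58.2%. The top periosteal cell held 43 of 180 Il6 UMIs in Mouse #1 and 42 of 519 in Mouse #2. Summed markers of these cells were 87 and 22 periosteal, 263 and 280 preosteoblast, and 101 and 23 reticular UMIs. Without them the periosteal level was 97.3 and 135.5 CPM, still above every other class. A single preosteoblast of Mouse #1 held 40 of the 56 Il6 UMIs of its class, and without it the level there was 2.09 CPM. A single barcode of the endothelial class of Mouse #1 held 42 of the 110 Il6 UMIs of its class. That barcode had 48375 UMIs in all, and its summed markers were 57 endothelial, 55 reticular, 25 periosteal and 10760 myeloid UMIs. Without it the endothelial level of Mouse #1 was 35.3 CPM, still above the 7.19 CPM of Mouse #2.

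**Figure D1:**
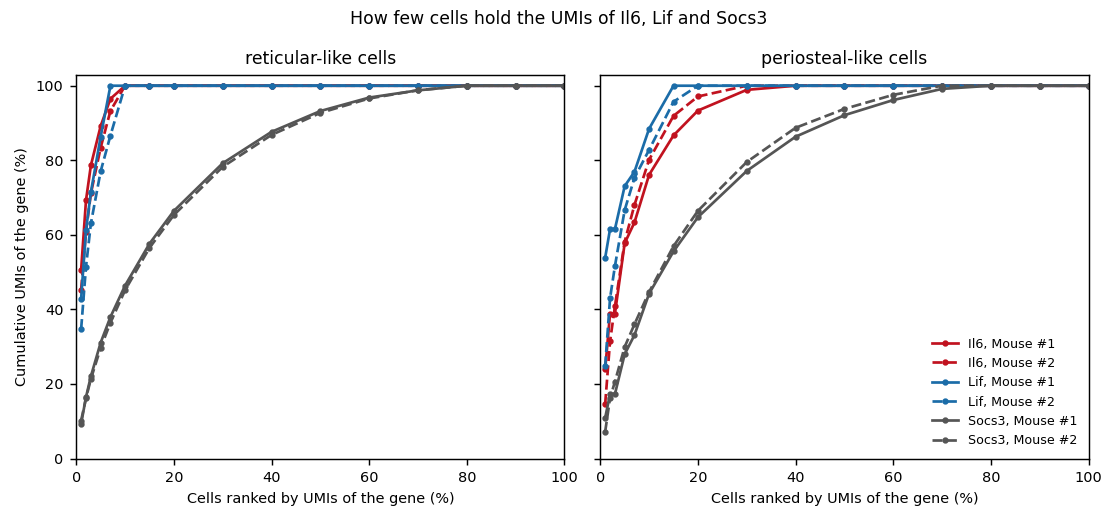
Cumulative share of the UMIs of Il6, Lif and Socs3 (y axis, %) against the share of cells (x axis, %), with cells ranked by their UMIs of that gene, in reticular (left) and periosteal (right) cells of each mouse (solid and dashed lines). In reticular cells the curves of Il6 and Lif reached their full height within the first 10% of cells, whereas the Socs3 curve rose over most of the cells. These cells held 342 and 488 Il6, 168 and 501 Lif and 6450 and 10949 Socs3 UMIs. Fewer UMIs can lie in fewer cells, and the curves were not compared at equal counts.

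Lif, the second cytokine, was also a transcript of the stromal classes, but endothelial cells, which had Il6, had almost none of it. Periosteal cells had 18.1 and 26.3 CPM, reticular cells 10.3 and 16.6 CPM, and preosteoblasts 6.65 and 7.52 CPM. Each endothelial sum held 1 UMI of Lif, or 0.506 and 0.514 CPM. Blood cells had 0.465 and 1.27 CPM. In both mice the order was periosteal, reticular, preosteoblast. The top 5% of reticular cells held 86.3% and 77.1% of the Lif UMIs of that class, and in periosteal cells of Mouse #1 a single cell held 14 of 26. Without that cell the periosteal level of Mouse #1 was 8.51 CPM, below the reticular 10.3 CPM, whereas Mouse #2 without its top cell had 22.2 CPM, so the order of these classes was seen in Mouse #2 alone. Shares of cells with Lif after thinning were 1.28% and 4.29% in periosteal and 1.53% and 2.32% in reticular cells.

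**Figure D2:**
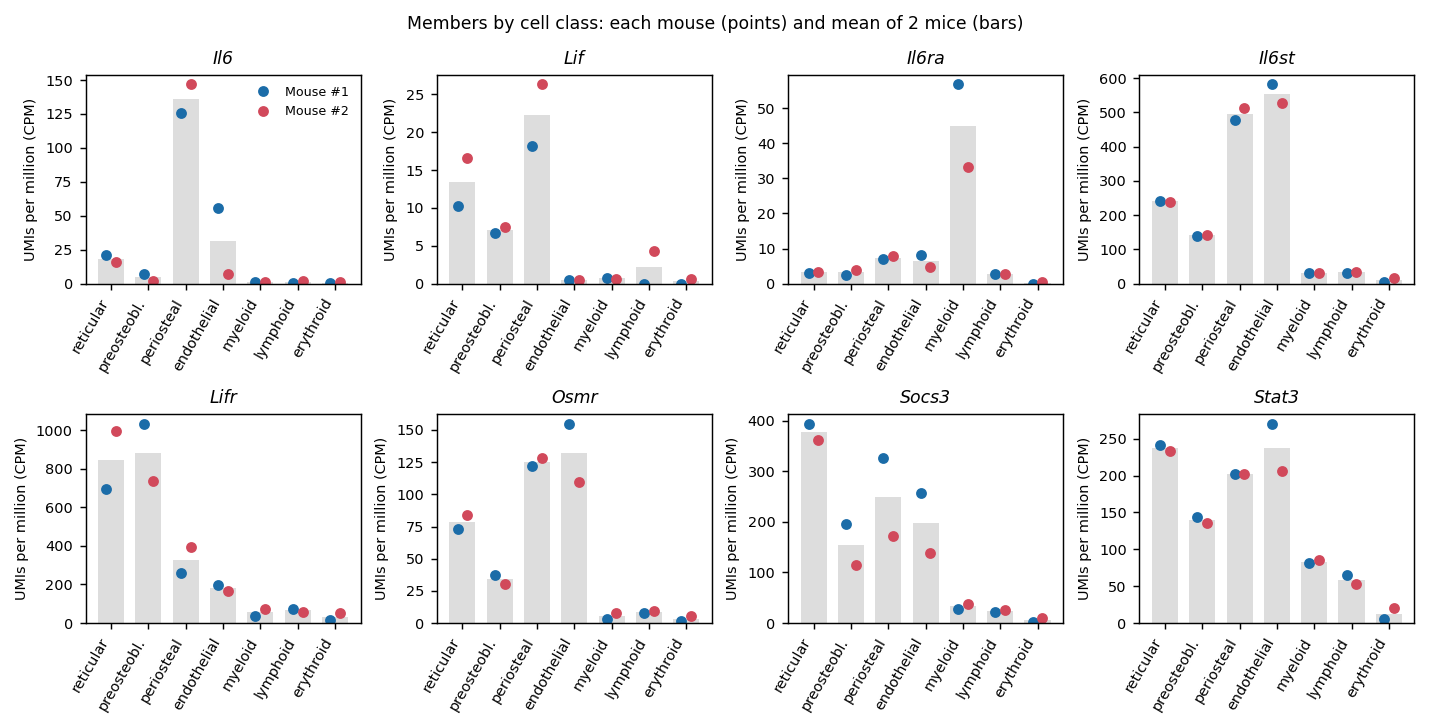
Level of each gene (y axis, CPM, linear from 0, scaled separately per gene) in the 7 named classes (x axis). Points are the 2 mice and bars their mean. Il6 and, with 1 cell of Mouse #1 included, Lif were highest in periosteal cells, Il6ra in myeloid cells, Il6st and Osmr in endothelial and periosteal cells, Lifr in preosteoblasts and reticular cells, and Socs3 in reticular cells (cluster 5 included).

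Few cells held both cytokines. After each cell was thinned at random to 2000 UMIs, which removes differences in depth, 33 and 59 reticular cells held Il6, and 1 and 3 of them also held Lif. That was 0.0805% and 0.124% of reticular cells, where the product of the separate shares of Il6 and Lif was 0.0407% and 0.0566%. These shares rest on too few cells to tell them apart. In periosteal cells of Mouse #2, Lif was found in 7 of 33 cells with Il6, a share of 21.2% (95% Wilson interval 10.7 to 37.8%), against 1.5% (0.511 to 4.32%) of cells without Il6. In Mouse #1 only 1 periosteal cell held Lif after thinning, and it also held Il6. The periosteal co-detection thus rested on 7 cells of 1 mouse.

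The sequences before the start sites of Il6 and Lif are given because these 2 genes are the cytokines described here and both were transcripts of few stromal cells. Motifs were searched on both strands in the 250 bases upstream of each RefSeq start (GRCm38.p6): AP-1 (TGANTCA), CRE (GACGTCA), C/EBP (TTGNGCAA), STAT (TTCNNNGAA) and kappaB by its name. Capitals mark the matches, none of which overlapped another. Il6 lies at chr5:30013114-30019981 on the plus strand and Lif at chr11:4257557-4272514 on the plus strand (GRCm38). The stretches printed are chr5:30012864-30013113 and chr11:4257318-4257556, both plus strand and outside annotated exons, and the RefSeq start of Lif lies inside the GENCODE exon.
Il6: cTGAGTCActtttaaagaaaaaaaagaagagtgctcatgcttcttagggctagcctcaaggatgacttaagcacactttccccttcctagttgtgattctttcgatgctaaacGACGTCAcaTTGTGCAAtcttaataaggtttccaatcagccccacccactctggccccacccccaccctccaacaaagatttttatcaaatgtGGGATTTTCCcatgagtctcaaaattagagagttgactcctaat
Lif: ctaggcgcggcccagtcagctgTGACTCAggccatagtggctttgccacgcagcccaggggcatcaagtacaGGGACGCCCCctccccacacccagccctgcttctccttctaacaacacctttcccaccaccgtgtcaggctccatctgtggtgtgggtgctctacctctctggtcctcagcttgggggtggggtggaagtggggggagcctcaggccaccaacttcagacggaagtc
In the Il6 stretch the matches were AP-1 at -249, CRE at -137, C/EBP at -128 and kappaB at -44 from the RefSeq start, and in the Lif stretch AP-1 at -228 and kappaB at -178. Of 32851 promoter windows of the same length, 6.75% held the AP-1 letters, 9.55% kappaB, 2.78% CRE, 2.61% C/EBP and 7.02% STAT. The STAT letters were in neither stretch. These matches are letters in a window and were not tested as binding sites.

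Il6ra, the chain that binds IL-6, was the only member highest in a blood class, the myeloid cells. Lymphoid cells, at 2.88 and 2.90 CPM, and erythroid cells, at 0 and 0.444 CPM, had little of it. Myeloid cells had 56.7 and 33.3 CPM, and every other class had between 0 and 8.09 CPM in either mouse. Among stromal classes it was detected in 3.30% and 3.68% of reticular cells before thinning, against 48.3% and 32.3% of myeloid cells. Within the myeloid class the level differed by cluster. Cluster 12, led by F13a1 and Ccr2, had 108 and 70.3 CPM, and cluster 7, led by the neutrophil genes Stfa2 and Retnlg, had 61.3 and 33.8 CPM. Cluster 13, led by the granule genes Elane and Mpo of early myeloid cells, had 7.73 and 7.79 CPM. Cluster 19, which stayed unnamed and was led by the complement genes C1qa, C1qb and C1qc, had 113 and 140 CPM. The reticular level of 3.05 and 3.40 CPM lay below the 7.18 and 5.09 CPM of free RNA, taken from barcodes that held no more than 100 UMIs. The periosteal level of 6.98 and 7.91 CPM lay below free RNA in Mouse #1 and above it in Mouse #2. Other genes also had classes below their free RNA, as given with the free RNA below. Il6ra lies at chr3:89864059-89913196 on the minus strand, where the antisense gene Gm42809 overlaps it, and the strand rule of the counting is not given in the sources used here.

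Il6st, which encodes the shared chain gp130, was found, before thinning, in 85.95% and 88.7% of stromal and in 80.9% and 79.7% of endothelial cells. Its level was 581 and 529 CPM in endothelial cells, 477 and 513 CPM in periosteal cells, 240.4 and 239.7 CPM in reticular cells and 139 and 143 CPM in preosteoblasts. Blood cells had 24.2 and 25.8 CPM. No neighbouring classes in this order overlapped among those 4. After thinning, 64.1% and 64.4% of periosteal cells, 38.2% and 39.1% of reticular cells and 4.94% and 5.18% of blood cells held a UMI.

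Most endothelial Il6st UMIs came from the smaller of the 2 endothelial clusters, which held 74.33% and 79.98% of them. Cluster 18, with 28 cells in each mouse and led by Gpm6a, Selp and Clca3a1, had 1852 and 1919 CPM, with Poisson intervals of 1730 to 1980 and 1790 to 2055. Cluster 10, with 124 and 110 cells and led by Gja4, Cav1 and Sema3g, had 195 and 136 CPM (173 to 218 and 118 to 156). The ratio of the clusters was 9.52 and 14.1. For the other members with enough UMIs the same ratio was smaller, at 1.33 and 1.43 for Lifr, 1.26 and 1.95 for Osmr, 2.17 and 1.59 for Socs3 and 1.28 and 1.70 for Stat3. The clustering did not use the 8 genes or the other genes of their pathway, and the pair of clusters was singled out after these values were seen, so no test is given. Il6st lies at chr13:112464070-112510086 on the plus strand.

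**Figure D3:**
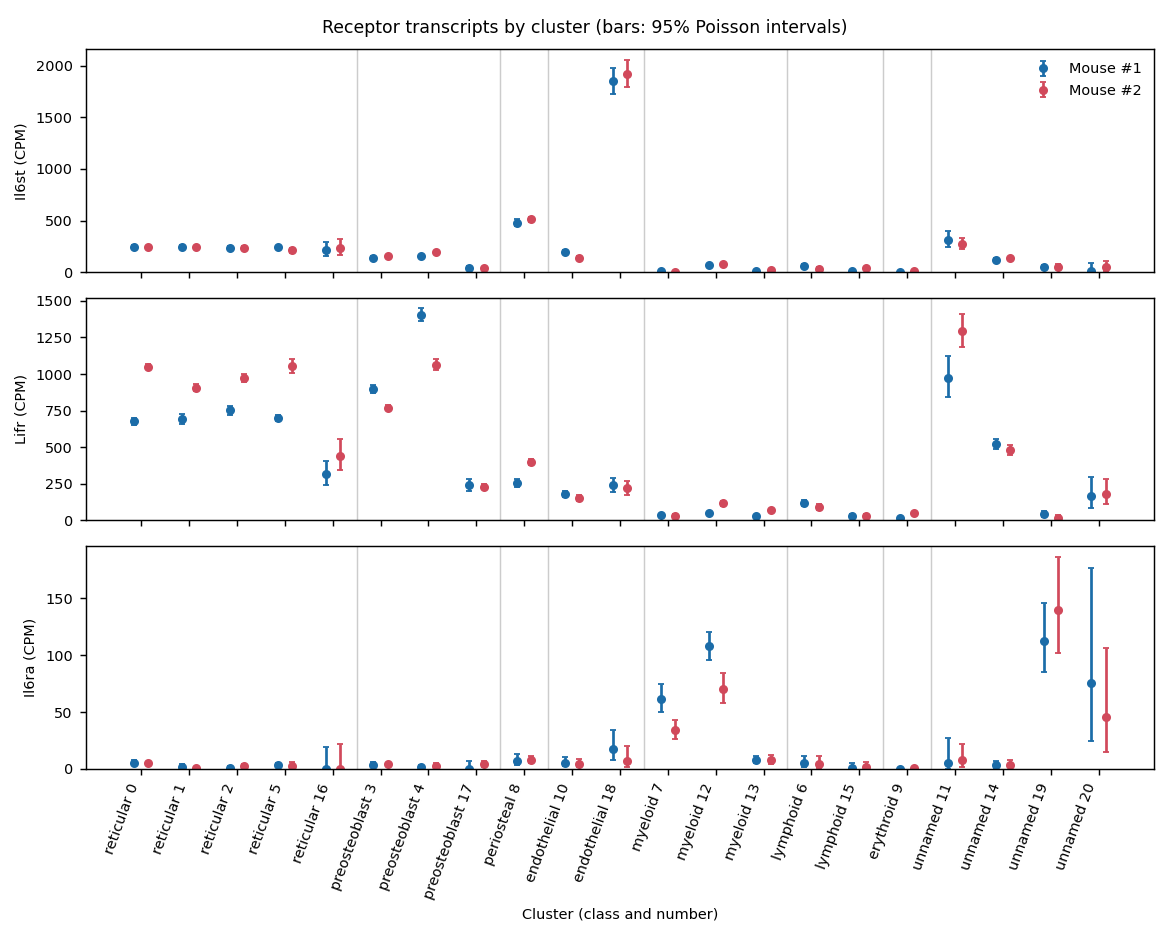
Level of Il6st, Lifr and Il6ra (y axes, CPM) in each cluster (x axis, class and number) in Mouse #1 and Mouse #2, with 95% Poisson intervals that cover counting error only. Endothelial cluster 18 stood at 1852 and 1919 CPM for Il6st, above the 513 CPM of the next cluster. Lifr was highest in preosteoblast cluster 4 in Mouse #1 (1404 CPM). In Mouse #2 it was highest in unnamed cluster 11 (1297 CPM), a shallow cluster with a median of 3063 UMIs per cell. Il6ra was raised in myeloid clusters 7 and 12 and in unnamed clusters 19 and 20.

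Lifr, the receptor chain for LIF, was a transcript of the osteoblast and reticular lineages. Preosteoblasts had 1033 and 735 CPM and reticular cells 697 and 997 CPM, and the order of these 2 classes was opposite in the 2 mice. Periosteal cells had 257 and 396 CPM, endothelial cells 195 and 168 CPM, and blood cells 38.2 and 61.4 CPM. Among preosteoblasts, cluster 4, led by Kcnk2 and Limch1 among others, had 1404 and 1065 CPM, whereas cluster 17, led by the osteoblast genes Bglap and Bglap2, had 239 and 231 CPM. Lifr lies at chr15:7090614-7197489 on the plus strand.

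Osmr, the receptor chain for oncostatin M, followed the order of Il6st more closely than that of Lifr. Endothelial cells had 155 and 110 CPM and periosteal cells 122 and 129 CPM, and these classes overlapped. Reticular cells had 73.0 and 84.3 CPM, preosteoblasts 37.1 and 30.6 CPM and blood cells 3.17 and 7.39 CPM. Cluster 17, whose cells were deep, again was low in CPM for a stromal cluster, at 7.66 and 7.90 CPM from 4 and 22 UMIs. Osmr lies at chr15:6813577-6874969 on the minus strand.

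Both chains of the LIF receptor were found in the same stromal cells about as often as their separate frequencies gave. After thinning, 25.9% and 30.5% of reticular cells held both Il6st and Lifr, where the product of the separate shares was 24.8% and 30.1%. In endothelial cells of Mouse #1 they were found together in 17.1% of cells against a product of 12.0%, with Lifr in 41.3% (29.96 to 53.6%) of cells with Il6st and in 20.2% (13.2 to 29.7%) of the others, whereas in Mouse #2 these intervals overlapped. In blood cells 5 and 6 cells held both, or 0.726% and 0.888% against 0.236% and 0.345%. Il6st and Osmr were found together in 4.35% and 5.96% of reticular cells, against a product of 4.92% and 5.96%. Il6st with Il6ra was found in 2 of 1242 and 12 of 2417 reticular cells.

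Stat3, the transcription factor of the pathway, varied least in ratio between the stromal classes. Reticular cells had 242 and 234 CPM, endothelial cells 270 and 206 CPM, periosteal cells 202 CPM in each mouse, and preosteoblasts 144 and 136 CPM. It was found in myeloid cells at 81.3 and 85.2 CPM, and blood cells as a whole had 59.1 and 56.5 CPM. Stat3 lies at chr11:100885098-100939540 on the minus strand, and Stat5a on the opposite strand overlaps it.

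Socs3, the feedback inhibitor, was highest in reticular cells at 394 and 362 CPM. Periosteal cells had 327 and 173 CPM, endothelial cells 257 and 139 CPM and preosteoblasts 196 and 114 CPM. Mouse #1 was the higher in each of these 4 classes, and the reticular values lay above all others in both mice. Without cluster 5, described next, the reticular level was 245 and 329 CPM, which in Mouse #1 was below the periosteal and endothelial values. Blood cells had 20.9 and 25.5 CPM. After thinning, 40.3% and 38.9% of reticular cells held a Socs3 UMI, against 3.34% and 4.88% of blood cells. Socs3 lies at chr11:117966079-117970047 on the minus strand.

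Within the reticular class Socs3 differed between clusters by more than it did between mice. Cluster 5, which Rgs16 and Egr1 led and in which Socs3 was among the 10 genes of largest fold, had 714 and 865 CPM. Cluster 1 had 312 and 411 CPM, cluster 0 had 245 and 342 CPM, cluster 2 had 207 and 194 CPM, and cluster 16 had 42.4 and 35.8 CPM. The ratio of cluster 5 to cluster 0 was 2.92 and 2.53 for Socs3 but 1.41 and 1.02 for Stat3. Cluster 5 took in 28.4% of the reticular cells of Mouse #1 but 5.33% of those of Mouse #2, with 95% Wilson intervals of 25.9 to 31.0% and of 4.5 to 6.30%. Socs3 is a leading gene of cluster 5, so its level there is a description and not a finding.

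Immediate early genes, which respond within minutes to stimuli and to cell dissociation, moved with Socs3 across these clusters. The summed level of 11 of them (Fos, Jun and Egr1 among these) was 21830 and 20302 CPM in cluster 5, 16066 and 16893 CPM in cluster 1, between 4523 and 5278 CPM in clusters 0 and 2, and 419 and 411 CPM in cluster 16. The 5 heat shock genes did not follow the same order. They summed to 3261 and 4542 CPM in cluster 1 and to 882 and 788 CPM in cluster 5. Neither list was left out of the clustering, and Egr1 was a leading gene of cluster 5 and heat shock genes of cluster 1. The levels of both lists across clusters are thus a description and no independent result. The part of the immediate early response in the Socs3 level was not tested.

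**Figure D4:**
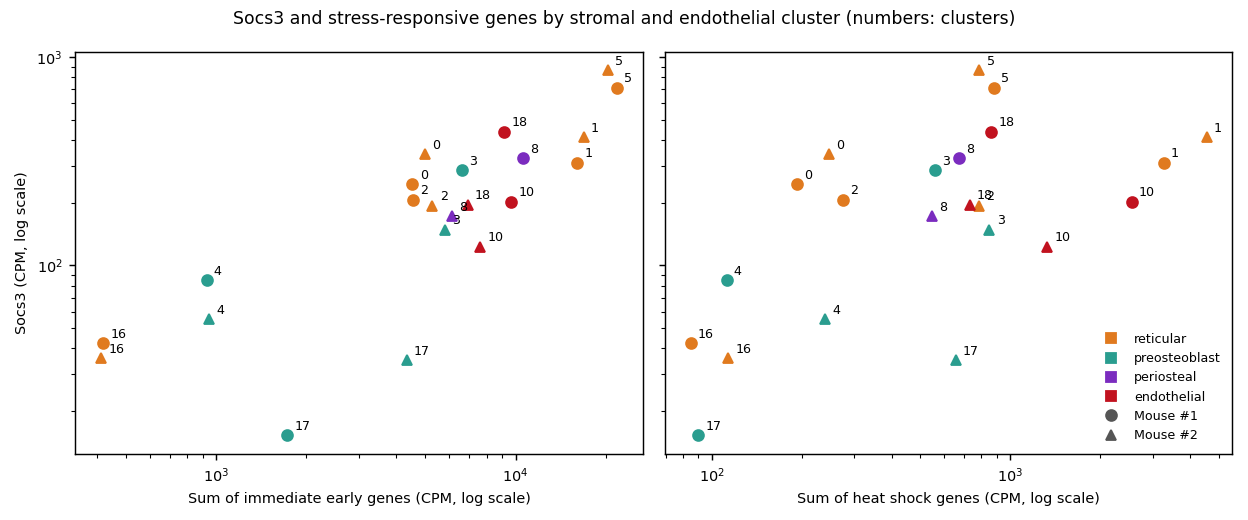
Socs3 (y axis, CPM, log scale) against the summed level of immediate early genes (left) and heat shock genes (right; x axes, CPM, log scale) for each stromal and endothelial cluster (numbered points) in Mouse #1 (circles) and Mouse #2 (triangles). Reticular cluster 5 was highest on both axes of the left panel, whereas reticular cluster 1 was highest in heat shock genes at 312 and 411 CPM of Socs3. The genes of both x axes were not left out of the clustering.

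The cytokines had their own pattern over the reticular clusters. Il6 was 47.6 and 31.1 CPM in cluster 5, 8.86 and 23.4 CPM in cluster 0 and 18.9 and 9.58 CPM in cluster 1. Cluster 2, led by Bmp4, Rspo2 and Il34 among others, had 2 and 10 Il6 UMIs, or 0.591 and 1.74 CPM. Lif was highest in cluster 0, which Ccl2 and Tnfsf11 led, at 20.1 and 24.9 CPM. It was 5.98 and 6.44 CPM in cluster 5 and 0.886 and 3.47 CPM in cluster 2. Cluster 5 was thus the higher of the 2 clusters for Il6 and cluster 0 for Lif in both mice, with Poisson intervals that did not overlap except for Il6 in Mouse #2 (23.6 to 40.2 against 20.99 to 26.0 CPM). Cluster 16, a small cluster of 41 cells per mouse led by Cxcl9, held 0 UMIs of either cytokine, with upper Poisson limits of 19.6 and 22 CPM.

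Reticular cells with an Il6 UMI had Socs3 more often than those without, but the intervals overlapped. After thinning, Socs3 was found in 57.6% (40.8 to 72.8%) of the 33 cells with Il6 against 39.9% (37.1 to 42.7%) in Mouse #1. In Mouse #2 it was found in 50.8% (38.4 to 63.2%) of 59 cells against 38.6% (36.6 to 40.5%). In periosteal cells the direction was the opposite, again with overlapping intervals. There Socs3 was found in 25% (8.89 to 53.2%) of 12 cells with Il6 against 34.8% (24.5 to 46.9%) in Mouse #1, and in 18.2% (8.61 to 34.4%) of 33 cells against 26.0% (20.4 to 32.5%) in Mouse #2.

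The lineages were compared to ask which cells of the sort contribute the transcripts. Stromal cells were higher than blood cells in 7 of the 8 genes, and Il6ra was lower. All 8 passed the edgeR quasi-likelihood test on UMIs summed per mouse (adjusted p under 0.05 after Benjamini-Hochberg adjustment over 14092 genes), where 73.5% of all tested genes were called, 38.4% higher and 35.0% lower. The log2 fold changes with their standard errors (SE, derived from the F statistic of the test, n = 2 mice) were 3.94 ± 0.78 for Il6, 3.43 ± 0.44 for Lif, -3.15 ± 0.34 for Il6ra, 2.82 ± 0.12 for Il6st, 3.69 ± 0.27 for Lifr, 3.32 ± 0.36 for Osmr, 3.33 ± 0.30 for Socs3 and 1.48 ± 0.13 for Stat3. The median of the 8 genes was 3.32 and that of all genes tested 0.08. With so large a share of all genes called, the number of members called says little about them, and the sizes of the differences carry the description.

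Endothelial cells were higher than blood cells in 6 of the 8 genes and lower in Il6ra, where 59.0% of all tested genes were called, 27.9% higher and 31.1% lower. The log2 fold changes were 4.20 ± 0.38 for Osmr, 4.03 ± 0.12 for Il6st, 2.65 ± 0.30 for Socs3, 1.60 ± 0.14 for Stat3 and 1.42 ± 0.25 for Lifr. Il6 gave 4.39 ± 0.88, with log2 ratios of 5.75 in Mouse #1, where a single barcode rich in myeloid markers held 42 of its 110 UMIs, and 1.88 in Mouse #2. Il6ra was at -2.40 ± 0.47. Lif was the exception at -1.19 ± 1.14, with an adjusted p of 0.407 in edgeR.

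Stromal and endothelial cells differed in 3 of the 8 genes, where 44.6% of all tested genes were called, 22.8% higher and 21.8% lower. Lif (4.62 ± 0.76) and Lifr (2.27 ± 0.25) were higher in stromal cells, and Il6st (-1.21 ± 0.11) was lower. Endothelial cluster 10, with 124 and 110 cells, had 195 and 136 CPM of Il6st, below the stromal 223 and 226 CPM. Only endothelial cluster 18, with 28 cells in each mouse, lay above the stromal level, at 1852 and 1919 CPM. Stromal cells had 9.61 and 14.2 CPM of Lif against 1 UMI in each endothelial sum. Il6 gave -0.45 ± 0.63, and the 2 mice went opposite ways (log2 ratios of -1.19 and 1.59). Osmr (-0.88 ± 0.31, adjusted p = 0.0584 in edgeR), Socs3 (0.68 ± 0.28), Il6ra (-0.75 ± 0.56) and Stat3 (-0.12 ± 0.13) did not pass the test, and Osmr passed under 4 of the alternatives.

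**Figure D5:**
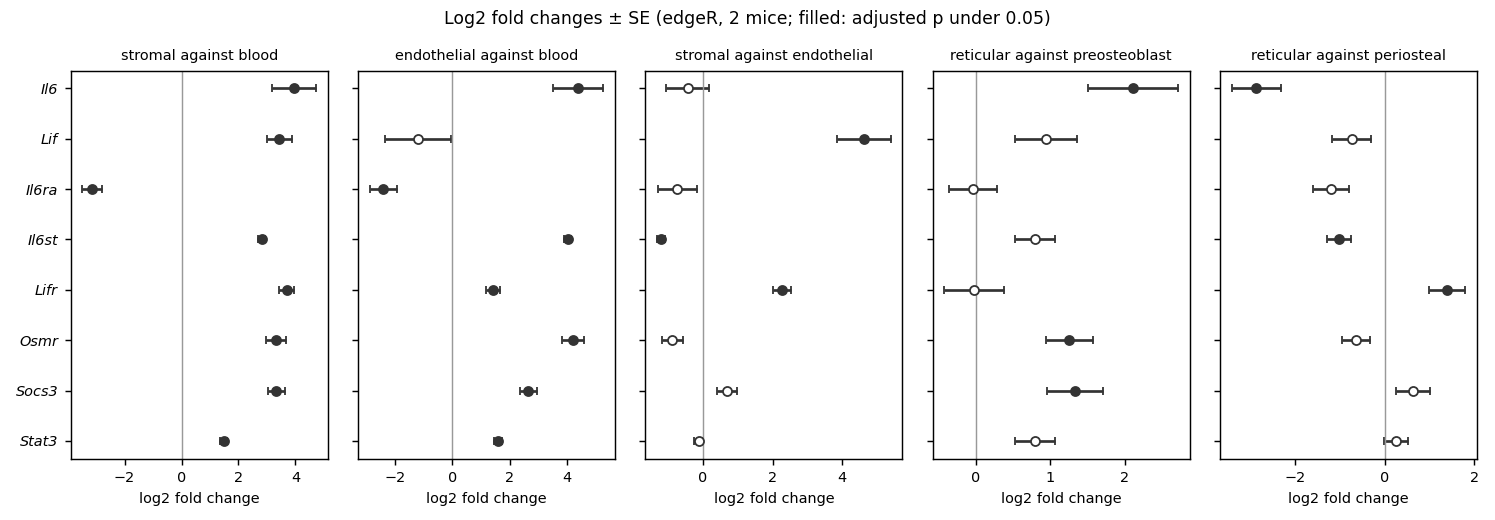
Log2 fold changes (x axis) of the 8 genes (y axis) in 5 comparisons of cell classes, with standard errors derived from the edgeR F statistic on sums of 2 mice. Filled points passed the test at an adjusted p under 0.05. All 8 points are filled for stromal against blood cells, 7 for endothelial against blood cells and 3 in each of the other panels.

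Within the stroma, reticular cells were set against preosteoblasts and against periosteal cells. Il6 (2.11 ± 0.61), Osmr (1.26 ± 0.31) and Socs3 (1.33 ± 0.38) were higher in reticular cells than in preosteoblasts, with adjusted p-values of 0.0306, 0.0155 and 0.0293 in edgeR. These are 3 of 8 genes, where 19.2% of all 13306 tested genes were called, 10.0% higher and 9.21% lower. Lif (0.95 ± 0.42), Il6st (0.80 ± 0.27) and Stat3 (0.80 ± 0.27) did not pass. A fit that took the mouse as a block, as both sums of a pair came from 1 animal, called these 3 as well, 6 of 8 in all, against 21.5% of all genes. Lifr (-0.02 ± 0.40) and Il6ra (-0.03 ± 0.33) were near 0, with the mice on opposite sides. Without cluster 5 only Osmr of the 8 passed, Socs3 fell to 0.92 ± 0.39 (adjusted p = 0.127 in edgeR) and Il6 to 1.49 ± 0.64 (adjusted p = 0.137 in edgeR). Il6 also missed the threshold with DESeq2 (adjusted p = 0.0687), and Socs3 without scaling factors (adjusted p = 0.0555 in edgeR).

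Periosteal cells had more Il6 (-2.87 ± 0.55, adjusted p = 0.00435 in edgeR) and Il6st (-1.02 ± 0.27, adjusted p = 0.0229 in edgeR) and less Lifr (1.39 ± 0.41, adjusted p = 0.0391 in edgeR) than reticular cells, signs being reticular over periosteal. These are again 3 of 8 genes, where 15.6% of all genes were called, 7.85% higher and 7.78% lower. The other 5 did not pass, and their values were -1.20 ± 0.39 for Il6ra, -0.74 ± 0.44 for Lif, -0.65 ± 0.31 for Osmr, 0.64 ± 0.38 for Socs3 and 0.26 ± 0.27 for Stat3. The Lifr difference no longer passed without scaling factors, with DESeq2 or without the highest doublet scores, with adjusted p-values from 0.0572 to 0.122.

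Reticular cells above a tdTomato threshold were compared with those at or below it, which asks whether the creER-marked subset differs in this pathway. The threshold was set from blood cells, so the negative cells can include marked cells with fewer tdTomato UMIs. The groups held 502 and 979 positive and 742 and 1442 negative cells. None of the 8 genes passed the edgeR test, where 0.0% of the 12188 genes tested were called and 461 had an unadjusted p under 0.05, while DESeq2 called 9 genes and none of the 8. The log2 fold changes lay between -0.34 ± 0.30 for Il6 and 0.11 ± 0.12 for Osmr. With the mouse as a block, Il6 passed at -0.41 ± 0.12 (adjusted p = 0.0146 in edgeR) together with 5.46% of all genes. On the TMM scale positive cells of Mouse #1 had 21.7 CPM of Il6 and negative cells 20.2 CPM, whereas in Mouse #2 the values were 10.9 and 19.6 CPM, so the lower value was seen in Mouse #2 alone.

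Other genes of the pathway were read from lists of ligands, receptors, signalling proteins and inhibitors, 26 genes of which 22 could be tested between classes. Against blood cells, stromal cells had 13 called higher and 5 lower, where 38.4% of all genes were higher and 35.0% lower. Oncostatin M (Osm) and Ebi3, a subunit shared by dimeric cytokines, were ligands of blood cells. Osm was 45.3 and 66.5 CPM in myeloid cells and at most 2.57 CPM in every other class and mouse, and its log2 fold change, stromal over blood, was -7.94 ± 0.34. Ebi3 was 54.7 and 67.7 CPM in myeloid cells, with a log2 fold change of -9.45 ± 0.36 that rested on 0 and 4 stromal UMIs. The ligands Ctf1 (cardiotrophin, 2.23 ± 0.38), Il11 (2.07 ± 0.61) and Clcf1 (1.34 ± 0.27) were higher in stromal cells. On the TMM scale Il11 was low in both, at 0.7344 and 0.8765 CPM in stromal and 0.09031 and 0.2938 CPM in blood cells. Among receptors Il31ra (1.93 ± 0.38) and Il11ra1 (1.83 ± 0.20) were higher and Il27ra (-2.25 ± 0.46) lower. Of the signalling genes Stat5a (1.32 ± 0.18), Stat5b (0.99 ± 0.11) and Jak2 (0.55 ± 0.13) were among the 4 called higher, and the phosphatase Ptpn6 (-7.16 ± 0.20) was lower. Of the inhibitors Socs2 (3.36 ± 0.17), Cish (2.32 ± 0.31) and Socs1 (1.29 ± 0.24) were higher, and Ptprc (CD45, -8.56 ± 0.36), a marker of blood cells, was lower.

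Endothelial cells had 7 of these 22 genes called higher than blood cells and 8 lower, near the 27.9% and 31.1% of all genes. Il11 (3.91 ± 0.69) and Clcf1 (2.41 ± 0.30) were the ligands called higher, with Il11 at 8 and 5 UMIs. Il11ra1 (1.27 ± 0.27), Jak2 (1.67 ± 0.14), Jak1 (1.18 ± 0.13), Ptpn11 (0.46 ± 0.11) and Socs2 (1.39 ± 0.17) were the others. Ptpn6 (-5.73 ± 0.24), Ptprc (-5.59 ± 0.37), Ebi3 (-5.43 ± 0.43), Stat5a (-1.74 ± 0.31) and Stat5b (-0.47 ± 0.14) were lower. Ctf1 was also called lower (adjusted p = 0.049 in edgeR), with 0 UMIs in each endothelial sum. The floor of 3 UMIs there is 1.52 and 1.54 CPM, above the 0.542 and 0.795 CPM of blood cells, so a lower level was not detectable at this depth.

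Stromal cells had 8 of the 22 called higher than endothelial cells and 9 lower, where 22.8% and 21.8% of all genes were. The kinase genes Jak2 (-1.12 ± 0.14) and Jak1 (-0.80 ± 0.13) were lower in stromal cells, whereas Stat5a (3.06 ± 0.28), Stat5b (1.46 ± 0.14), Il31ra (4.38 ± 0.83), Socs2 (1.97 ± 0.16), Cish (1.31 ± 0.37) and Socs1 (1.04 ± 0.29) were higher. Ctf1 was at 4.59 and 3.51 CPM in stromal cells and at 0 UMIs in endothelial cells. Osm (-3.24 ± 0.91), Ebi3 (-4.02 ± 1.11), Il11 (-1.84 ± 0.51), Il27ra (-3.63 ± 0.53), Ptpn6 (-1.43 ± 0.39) and Ptprc (-2.97 ± 0.57) were lower, beside the myeloid markers that the endothelial sums carried. Endothelial counts were 1 and 5 UMIs for Osm, 3 and 1 for Ebi3 and 1 and 0 for Il31ra.

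In reticular cells against preosteoblasts, 9 of the 22 were called higher and 0 lower, where 10.0% and 9.21% of all genes were. Il31ra (5.10 ± 0.63) was at 4.82 and 6.88 CPM in reticular cells and at 0 and 4 UMIs in preosteoblasts. The others named were Il11ra1 (1.23 ± 0.29), Stat5a (1.60 ± 0.20), Stat5b (1.23 ± 0.13), Cish (1.28 ± 0.32) and Clcf1 (1.10 ± 0.27). Against periosteal cells 3 were higher and 4 lower, where 7.85% and 7.78% of all genes were. Stat5a (1.30 ± 0.23), Stat5b (0.92 ± 0.14) and Jak2 (0.85 ± 0.20) were higher. The receptor chains Il31ra (-1.97 ± 0.40) and Il11ra1 (-1.58 ± 0.29) were lower, as Il6st was, with Il11ra1 at 76.1 and 49.5 CPM in periosteal cells. Osm (-3.57 ± 1.09) and Ptprc (-3.14 ± 0.81) were also lower, with 3 Osm UMIs in each periosteal sum.

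Genes that STAT3 is known to induce did not form 1 pattern. Of 12 tested, 9 were called higher and 2 lower in stromal than in blood cells, where 38.4% and 35.0% of all genes were. For the lists that follow, the shares of all genes called higher and lower were 27.9% and 31.1% for endothelial against blood cells, 22.8% and 21.8% for stromal against endothelial cells, 10.0% and 9.21% for reticular cells against preosteoblasts and 7.85% and 7.78% for reticular against periosteal cells. In stromal against blood cells Saa3 (3.88 ± 1.10), Timp1 (3.66 ± 0.61) and Lbp (2.21 ± 0.17) were higher and Lcn2 (-9.37 ± 0.36), a neutrophil granule gene, and Mcl1 (-0.51 ± 0.17) were lower. On the TMM scale Saa3 was at 3.525 and 0.9698 CPM in stromal and 0.1806 and 0.09793 CPM in blood cells. These blood values lay under the floor of 3 UMIs (0.2322 and 0.2385 CPM). Endothelial cells had 3 higher than blood cells, namely Icam1 (4.30 ± 0.29), Bcl3 (1.61 ± 0.13) and Mcl1 (0.77 ± 0.17), and 4 lower, among them Lcn2 (-4.42 ± 0.29), Hp (-2.82 ± 0.26) and Lbp (-0.60 ± 0.18). Stromal against endothelial cells had 6 higher, among them Hp (3.96 ± 0.27), Timp1 (2.86 ± 0.68) and Lbp (2.82 ± 0.18), and 4 lower, among them Lcn2 (-4.95 ± 0.30), Icam1 (-2.20 ± 0.25) and Mcl1 (-1.28 ± 0.17). Reticular cells had 7 of 12 higher than preosteoblasts, with Hp (2.76 ± 0.42), Lbp (2.68 ± 0.42) and Icam1 (1.99 ± 0.33) first, and Timp1 (-3.02 ± 0.55) lower. Against periosteal cells Hp (3.75 ± 0.44), Myc (1.93 ± 0.30) and Pim1 (0.86 ± 0.26) were higher and Timp1 (-3.88 ± 0.57) and Icam1 (-1.92 ± 0.31) lower. Hp was also used to name the reticular class, so its difference is no independent result. This list, the inflammatory list and the immediate early and heat shock list were not left out of the clustering that gave the classes. Their counts between classes are therefore a description and not independent of the division into classes.

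All 8 inflammatory genes passed in stromal against blood cells, where 73.5% of all genes did, and 7 of them were higher (38.4% of all genes), with Cxcl1 (4.21 ± 0.12), Ptx3 (3.98 ± 0.36) and Ccl7 (3.97 ± 0.67) first and Cxcl2 (-5.11 ± 0.48) lower. Endothelial cells had Cxcl1 (3.80 ± 0.12), Nfkbia (1.54 ± 0.18) and Nfkbiz (1.25 ± 0.14) higher than blood cells and Cxcl2 (-1.44 ± 0.47) lower. Against endothelial cells, stromal cells had 6 of 8 higher, with Ptx3 (4.90 ± 0.42), Ccl7 (3.63 ± 0.77) and Ccl2 (3.17 ± 0.46) first, and Cxcl2 (-3.67 ± 0.56) lower. Reticular cells had 7 of 8 higher than preosteoblasts, led by Ccl2 (3.93 ± 0.72), Ccl7 (3.76 ± 0.73) and Cxcl1 (2.82 ± 0.55). Ccl2 was itself a leading gene of a reticular cluster. Between reticular and periosteal cells only Ptx3 (3.20 ± 0.53) and Cxcl2 (-2.60 ± 0.63) passed.

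Of the immediate early and heat shock genes, stromal cells had 12 of 16 higher than blood cells (38.4% of all genes), led by Hspb1 (3.94 ± 0.71), Egr1 (3.60 ± 0.27) and Fosb (3.14 ± 0.20), and endothelial cells 14 of 16 (27.9% of all genes), led by Hspb1 (5.99 ± 0.77), Ier3 (3.90 ± 0.29) and Atf3 (3.20 ± 0.31). Stromal against endothelial cells had 4 higher, among them Jun (1.12 ± 0.15), Zfp36 (0.85 ± 0.19) and Egr1 (0.76 ± 0.24), and 5 lower, among them Hspb1 (-2.05 ± 0.62), Ier3 (-1.88 ± 0.26) and Ier2 (-1.10 ± 0.13). Reticular cells had 8 higher than preosteoblasts, led by Hspb1 (3.28 ± 0.67), Jun (1.42 ± 0.37) and Junb (1.39 ± 0.25), while against periosteal cells Dnajb1 (1.37 ± 0.27) alone passed. None of these lists had a called gene between tdTomato-positive and tdTomato-negative cells, where no gene was called.

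The genes whose levels were most like those of the 8 were read across 38 sums of 19 clusters in 2 mice, among 8989 genes outside the lists. Pearson's r of log2(CPM + 1) is given as a description, since sums of 1 mouse share a library. Il6 was most like Adamts1 (r = 0.806), Nr4a3 (0.802) and Peg3 (0.798), and Lif most like Gm26523 (0.833), Errfi1 (0.830) and Medag (0.823). Il6ra was most like the macrophage gene Cd68 (0.896), Mpeg1 (0.866) and AF251705 (0.862). Il6st was most like 2510009E07Rik (0.926), Nfe2l1 (0.922) and Pros1 (0.910), Lifr like Efna5 (0.974), Adam12 (0.968) and Dlg5 (0.967), and Osmr like Sema4c (0.956) and Tns2 (0.954). Socs3 was most like Arid5b (0.925), Klf9 (0.910) and Adamts1 (0.904), and Stat3 like Rbms1 (0.943), Aff4 (0.935) and Mbnl2 (0.929). Among the 8 themselves, Socs3 and Stat3 had the highest r (0.886), followed by Il6st and Osmr (0.862), and Il6ra had an r of at most 0.138 with any other.

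Barcodes with 100 UMIs or fewer gave the free RNA that a cell without a transcript could have picked up. It held 18.6 and 19.0 CPM of Il6, 561 and 668 CPM of Lifr and 205 and 198 CPM of Socs3. Reticular Il6, at 20.9 and 16.1 CPM, lay above its free RNA in Mouse #1 and below it in Mouse #2. Reticular Lif of Mouse #1, at 10.3 CPM, was near its 10.1 CPM of free RNA. Lifr in periosteal (257 and 396 CPM) and endothelial cells (195 and 168 CPM) lay below its free RNA. Il6st in preosteoblasts did too (139 and 143 against 152 and 162 CPM). The part of free RNA in these levels was not tested. Blood cells, at 0.774 and 1.43 CPM of Il6, lay far below the free RNA of that gene, and their shares of cells with a UMI serve as the background of the other classes. After thinning, 0% and 0.148% of blood cells held Il6 and 4.79% and 6.66% held Lifr, against 2.66% and 2.44% of reticular cells for Il6 and 64.9% and 76.9% for Lifr.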

How the data were processed

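The authors deposited raw UMI counts per feature and barcode for 2 libraries (10x Genomics version 3 chemistry), made per the file headers with Cell Ranger 3.0.0 and per the labels on mm10. The annotation release and the strand rule of the counting are not given in the sources used here. The deposited tables list 6794880 barcodes each, unfiltered.

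Barcodes were kept as cells from 1000 genes upward where mitochondrial genes gave no more than 15% of the UMIs, as in the study. Leiden clustering (leidenalg 0.10.2, scanpy 1.11.5, resolution 0.5) used 2000 variable genes, 30 principal components and 15 nearest neighbors with log UMIs regressed out, and left out the 8 genes and the 26 other pathway genes. The lists of STAT3-induced, inflammatory, and immediate early and heat shock genes were not left out. Clusters were named from marker lists, each needing at least 3 markers raised 1.5-fold in at least 10% of cells, and since names were rebuilt they can differ from those of the study. The members and lists were chosen with earlier results of these data known. Doublets were kept, since Scrublet marked 2 and 3 cells (0.0727% and 0.0655%) and had not worked, and the 60 and 168 highest scores were left out as an alternative.

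UMIs were summed per mouse and class and tested with edgeR 4.0.16 (quasi-likelihood, TMM scaling, filterByExpr, Benjamini-Hochberg over all genes, threshold 0.05) in R 4.3.3, tested on simulated data. The study's test over cells was not used, since cells are not replicates. Lineage comparisons shared 1 fit of 6 sums and the class comparisons 1 fit of 14 sums. Levels are CPM of these sums without TMM. Shares are given after thinning to 2000 UMIs, which left out 6 and 21 cells. A reticular cell was tdTomato-positive above the 99th percentile of blood cells of its mouse (7.92 and 14.7 UMIs per 10000). Poisson and Wilson intervals and the floor of 3 UMIs cover counting error only. Every member was named in every comparison, and from each other list the up to 3 called genes of largest change in each direction. A few genes that this rule or the likeness measure would name are not reported here.

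The mouse pairs the sums, as both came from 1 animal. Deviations from class means correlated across genes at 0.272 (reticular and preosteoblast), 0.183 (reticular and periosteal), 0.259 (stromal and blood), 0.141 (stromal and endothelial), 0.0996 (endothelial and blood) and 0.517 (tdTomato). Coordinates are from GENCODE on GRCm38, promoters from RefSeq on GRCm38.p6.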

Additional observations from a re-analysis of the deposited data

How the results depend on the processing

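With 2 mice, genes of low counts and small classes limit the tests, and a single mouse cannot be tested. The numbers of members called against blood cells and between stromal and endothelial cells stayed within 1.5 times under each alternative run, and Leiden resolution 1.0 changed no call. For reticular cells against preosteoblasts, 3 genes were called at first, 6 without a filter on low counts, 6 with the replicate block, 5 without the highest doublet scores and, in an alternative chosen after seeing the data, 1 without the Socs3-led cluster 5. For reticular against periosteal cells 3 became 6 without the filter. In the tdTomato comparison the block called 1 gene and 666 genes in all, against 0 without it, 9 with DESeq2, 69 without the filter and 1 at the stricter tdTomato threshold. The block changed no other call. Leaving out scaling factors moved the median of all genes from 0.08 to 0.42 for stromal against blood and from -0.09 to 0.34 for endothelial against blood, with 6665 genes higher and 3727 lower in place of 5418 and 4936, and 5407 and 2896 in place of 3934 and 4380. The same split in reticular against periosteal cells was 770 and 1635 with DESeq2 in place of 1045 and 1035. None of these turned a called member. The cause of the changed calls was not tested.

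Directions turned only for values that had not passed. Il6 in stromal against endothelial cells was 0.057 without the highest doublet scores. In reticular cells against preosteoblasts Il6ra was 0.34 at 2000 genes and 10% mitochondrial UMIs and 0.20 without the heat-shock-led cluster 1, and Lifr was 0.0037 without cluster 1. In the tdTomato comparison Lif was 0.0084 without the highest doublet scores, 0.14 without cluster 1 and 0.16 at the stricter tdTomato threshold, Il6ra was -0.12 at the stricter cell limits and -0.047 without the highest doublet scores, Il6st was -0.037 and Socs3 0.27 at the stricter tdTomato threshold, and Socs3 was 0.080 without cluster 5. Shares of cells with a UMI rose when cells were not thinned, from 14.8% to 29.3% for Il6 and from 2.79% to 15.4% for Lif in periosteal cells, from 10.5% to 40.3% for Il6ra in myeloid cells, from 64.2% to 97.4% for Il6st in periosteal cells, from 71.9% to 96.7% for Lifr in preosteoblasts, from 23.6% to 66.0% for Osmr in endothelial cells, and from 39.6% to 76.0% for Socs3 and from 38.2% to 86.2% for Stat3 in reticular cells.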
